A study of Mus musculus with 16 samples.

Results

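The lymphoid chemokines Ccl21 and Cxcl13 were studied together with Ccl19 and the receptors Ccr7 and Cxcr5, and were found by their gene symbols in the annotation of the array. These symbols gave 7 genes (Ccl21a, Ccl21b, Ccl21c, Ccl19, Cxcl13, Ccr7 and Cxcr5) of 16593 named genes, with 9 gene probes of 25697. Total RNA from left (LA) and right (RA) atria was hybridized to 16 Illumina MouseRef-8 arrays, on which a probe is a short sequence fixed to a bead. There were 4 LA and 4 RA arrays of wild-type MF1 mice (MF1_12) and 4 LA and 4 RA arrays of wild-type Swiss-Agouti mice (SA_12), both outbred strains, labelled as 12 months old and untreated as far as the labels say. The study's methods text gives a younger age for the Swiss-Agouti mice, and its overview names the MF1_12 mice as male and the SA_12 mice as female, so that strain and sex cannot be told apart. Per the methods no samples were pooled. The 4 arrays of each side limit the precision.

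Chemokines of this group place lymphocytes and dendritic cells in lymph nodes and spleen. Ccl21 and Ccl19 are the ligands of Ccr7, which T cells and mature dendritic cells carry, and Ccl21 is made by lymphatic endothelium and by stromal cells of the T cell zone. Cxcl13 is the ligand of Cxcr5 on B cells, and is made by follicular stromal cells and by some macrophages. Their genes are switched on in lymphoid stroma through the lymphotoxin beta receptor and the non-canonical NF-kB pathway with RelB and p52. The mouse carries several near-identical Ccl21 genes, whose products differ by a serine (Ccl21a) or a leucine (Ccl21b and Ccl21c).

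The promoters of the copies are shown first, and no probe or transcript sequences were compared. Promoter bases lie outside the transcript, so they do not show what a Ccl21 probe can tell apart. RefSeq promoter entries (GRCm38.p6) matched 4 of the 7 genes, Ccl21a, Ccl21b, Ccl19 and Cxcl13. Printed are the 250 bases before the annotated start of Ccl21a (chr4:42773992-42774241, minus strand), of Gm13304, a Ccl21-like copy (chr4:42114537-42114786, plus strand), and of Cxcl13 (chr5:95956689-95956938, plus strand), each 5′ to 3′ on the strand of the gene. Capitals mark ATAAAT in Ccl21a, the bases that differ from Ccl21a in Gm13304, and GGGAGATTT, TATAAA and ATAAAT in Cxcl13.
Ccl21a: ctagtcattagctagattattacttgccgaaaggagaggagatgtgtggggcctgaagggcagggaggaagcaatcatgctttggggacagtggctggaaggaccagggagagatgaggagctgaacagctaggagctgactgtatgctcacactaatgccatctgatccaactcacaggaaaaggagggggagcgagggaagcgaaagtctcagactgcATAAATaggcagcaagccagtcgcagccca
Gm13304: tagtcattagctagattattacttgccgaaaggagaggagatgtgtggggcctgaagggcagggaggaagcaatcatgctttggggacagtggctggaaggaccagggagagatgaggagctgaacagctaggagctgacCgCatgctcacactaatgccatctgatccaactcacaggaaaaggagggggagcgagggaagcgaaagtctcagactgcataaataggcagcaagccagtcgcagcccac
Cxcl13: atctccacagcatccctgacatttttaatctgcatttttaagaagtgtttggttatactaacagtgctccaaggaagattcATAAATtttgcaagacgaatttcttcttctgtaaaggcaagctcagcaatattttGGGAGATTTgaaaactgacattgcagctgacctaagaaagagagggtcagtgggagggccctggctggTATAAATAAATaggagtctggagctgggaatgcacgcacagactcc

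Over 249 bases compared, Ccl21a and Gm13304 differed at 2 bases (99.2% identical). The promoter of a further copy, Gm10591, was identical to that of Gm13304 over 250 bases, and that of Ccl21d differed from Ccl21a at 1 base (99.6% identical). The entry named Ccl21b was 32.8% identical to Ccl21a, against 30.8% for Cxcl13 and 27.6% for Ccl19, which are unrelated promoters. Promoters were compared without gaps and at small shifts only. Whether the Ccl21b entry would match Ccl21a at a larger shift was not tested. No probe was annotated to the other Ccl21-like genes (0 probes). The study gives partly other names to the Ccl21 probes. By its folds in MF1_12 and SA_12, the probe named Ccl21a here (4.22 and 2.72) matches the study's Ccl21b. The probe named Ccl21b here (2.88 and 2.74) matches its LOC100041504, described there as similar to Ccl21c, and the Ccl21c probe (3.08 and 3.04) has the same name in both. The names Ccl21a, Ccl21b and Ccl21c below are therefore those of the annotation, and whether each probe detects its own copy alone was not tested.

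Motifs were searched on both strands of these 250 bases, and were chosen with the sequences in view. GGGAGATTT, the core of the NF-kB site bound by RelB and p52, lay at -114 to -106 of Cxcl13 on the gene's strand, and 93 of 32851 promoters of this length held it (0.283%). GGGACTTTC, the core of the classical NF-kB site, is held by 0.289% of promoters and was in none of the 4 members. TATAAA lay at -46 to -41 of Cxcl13 (12.4% of promoters), and overlaps there with ATAAAT, which begins at -45 and again at -41. A further ATAAAT lay at -169 to -164 of Cxcl13. ATAAAT lay at -30 to -25 of Ccl21a and at -189 to -184 of Ccl19, and 12.5% of promoters held it. A match of letters describes the sequence only.

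The deposited values are log2 signals that the authors had normalized and set relative to a median for every probe, so that they give differences between arrays but neither the level of a gene nor whether it was detected. Each value below is on this centred log2 scale, and each difference is LA minus RA. The genes were chosen by their LA minus RA differences in these arrays, so this contrast is described without a test. In bulk tissue, fewer cells of a type and less RNA per cell cannot be told apart.

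The Ccl21 probes were higher in LA, and Cxcl13 was higher in RA, in both strains. The Ccl21a probe was at 1.72, 1.09, 1.76 and 1.502 in MF1_12 LA arrays, against -0.64, -0.28, -0.62 and -0.69 in MF1_12 RA arrays. In SA_12 it was at 0.70, 0.77, 0.58 and 0.99 in LA, against -0.69, -0.71, -0.74 and -0.58 in RA. All LA arrays lay above all RA arrays in each strain, with LA replicate 2 the lowest of the MF1_12 LA arrays. The difference was 2.08 (SE 0.15) in MF1_12, a 4.22-fold higher LA value, and 1.44 (SE 0.08) in SA_12, 2.72-fold.

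The Ccl21b probe was at 1.45, 0.67, 1.55 and 0.77 in MF1_12 LA arrays, against -0.36, -0.34, -0.51 and -0.46 in RA arrays. In SA_12 it was at 0.63, 0.67, 0.78 and 0.78 in LA, against -0.82, -0.66, -0.83 and -0.63 in RA. The MF1_12 LA arrays fell apart into replicates 1 and 3, which were high, and replicates 2 and 4, while the SA_12 LA arrays lay close together. The difference was 1.52 (SE 0.19) in MF1_12 (2.88-fold) and 1.45 (SE 0.06) in SA_12 (2.74-fold).

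The Ccl21c probe was at 1.90, 0.76, 1.92 and 0.83 in MF1_12 LA arrays, against -0.35, -0.11, -0.47 and -0.18 in RA arrays. In SA_12 it was at 0.74, 0.98, 0.61 and 0.77 in LA, against -1.03, -0.61, -1.01 and -0.67 in RA. The same MF1_12 LA arrays, replicates 1 and 3, were high, and the sides did not overlap in either strain. The difference was 1.63 (SE 0.28) in MF1_12 (3.08-fold) and 1.61 (SE 0.11) in SA_12 (3.04-fold).

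Cxcl13 was at -3.30, -2.32, -2.40 and -2.66 in MF1_12 LA arrays, against 0.94, 1.62, 1.13 and 1.06 in RA arrays. In SA_12 it was at -1.12, -1.04, -1.34 and -1.28 in LA, against 1.79, 1.67, 1.61 and 1.84 in RA. Every RA array lay above every LA array of its strain, with LA replicate 1 the lowest of all MF1_12 arrays. The difference was -3.86 (SE 0.22) in MF1_12, a 14.5-fold higher RA value, and -2.92 (SE 0.08) in SA_12, 7.59-fold. The highest LA and lowest RA array were apart by 3.27 in MF1_12 and 2.66 in SA_12, against gaps of 0.87 to 1.37 in MF1_12 and 1.16 to 1.26 in SA_12 between the lowest LA and highest RA array of the Ccl21 probes.

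**Figure D1:**
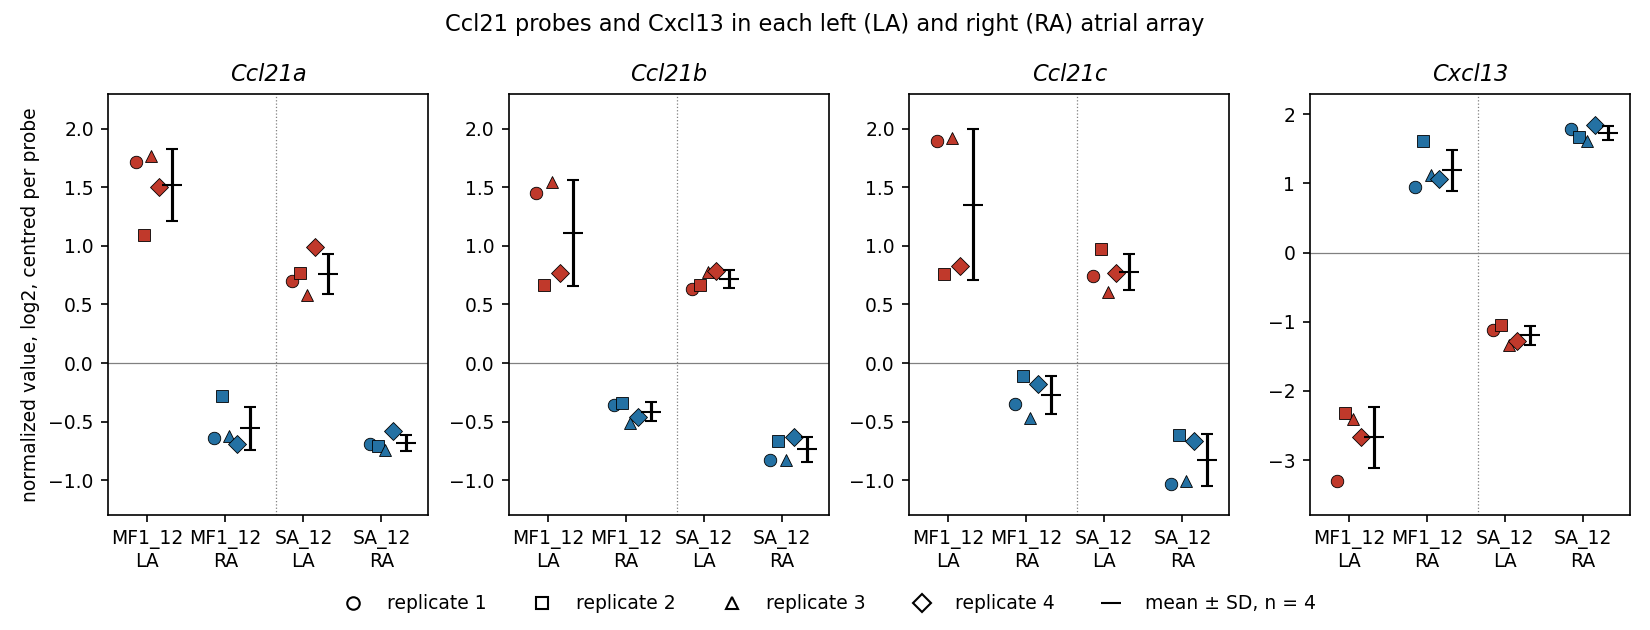
Normalized value (log2, centred per probe) of the Ccl21 probes and Cxcl13 in each array of LA (red) and RA (blue) of MF1_12 and SA_12, with marker shapes for replicates 1 to 4 and the mean ± SD (n = 4) beside them. The LA arrays of the 3 Ccl21 probes lie above all RA arrays of their strain, and the order is turned for Cxcl13.

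Ranked among all 25697 probes by the size of their difference in the same direction, Cxcl13 was at place 3 of the probes higher in RA in MF1_12 and place 6 in SA_12. Among probes higher in LA, Ccl21a, Ccl21b and Ccl21c were at places 5, 14 and 12 in MF1_12 and at places 11, 10 and 8 in SA_12. At the threshold of the study, a fold above 1.5 together with a Benjamini-Hochberg adjusted p under 0.05 (limma), 4 of the 9 probes passed in each strain, 3 higher in LA and 1 higher in RA. Of all probes, 0.79% passed in MF1_12 (0.296% higher in LA and 0.494% higher in RA) and 0.63% in SA_12 (0.288% higher in LA and 0.342% higher in RA). The sides did not overlap for 4 of the 9 probes in each strain, beside 6.99% (MF1_12) and 7.17% (SA_12) of all probes. The rule behind the choice of genes used this contrast, so nothing is read from these counts. The Ccl21c probe no longer passed in MF1_12 in 6 of the 8 fits without 1 array (without LA replicate 1, LA replicate 3 or any RA array), with differences of 1.44 to 1.82 over all 8 fits.

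The other ligand of Ccr7 and both receptors showed differences near 0. Ccl19 was at -0.02, -0.14, 0.01 and -0.30 in MF1_12 LA arrays, against 0.07, -0.19, 0.43 and -0.16 in RA arrays, and at 0.07, 0.31, 0.08 and -0.05 in SA_12 LA arrays, against 0.14, 0.10, 0.08 and 0.06 in RA arrays. The sides overlapped in both strains, with a difference of -0.15 (SE 0.14) in MF1_12 and 0.01 (SE 0.07) in SA_12. Ccr7 lay between -0.10 and 0.13 in LA, against -0.05 and 0.10 in RA, in MF1_12, and between 7.8e-05 and 0.10 in LA, against -0.03 and 0.22 in RA, in SA_12. Its difference was 0.03 (SE 0.06) in MF1_12 and -0.04 (SE 0.06) in SA_12. The 3 probes of Cxcr5 differed by -0.02 (SE 0.07), -0.01 (SE 0.06) and 0.05 (SE 0.05) in MF1_12 and by -0.01 (SE 0.05), -0.11 (SE 0.06) and -0.05 (SE 0.06) in SA_12, all with overlapping sides. Over the 8 arrays of a strain, Ccr7 and the Cxcr5 probes spanned 0.151 to 0.295 in MF1_12 and 0.126 to 0.310 in SA_12, where the median of all probes was 0.286 and 0.261. A probe near background would also give small differences, and with centred values this was not tested.

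**Figure D2:**
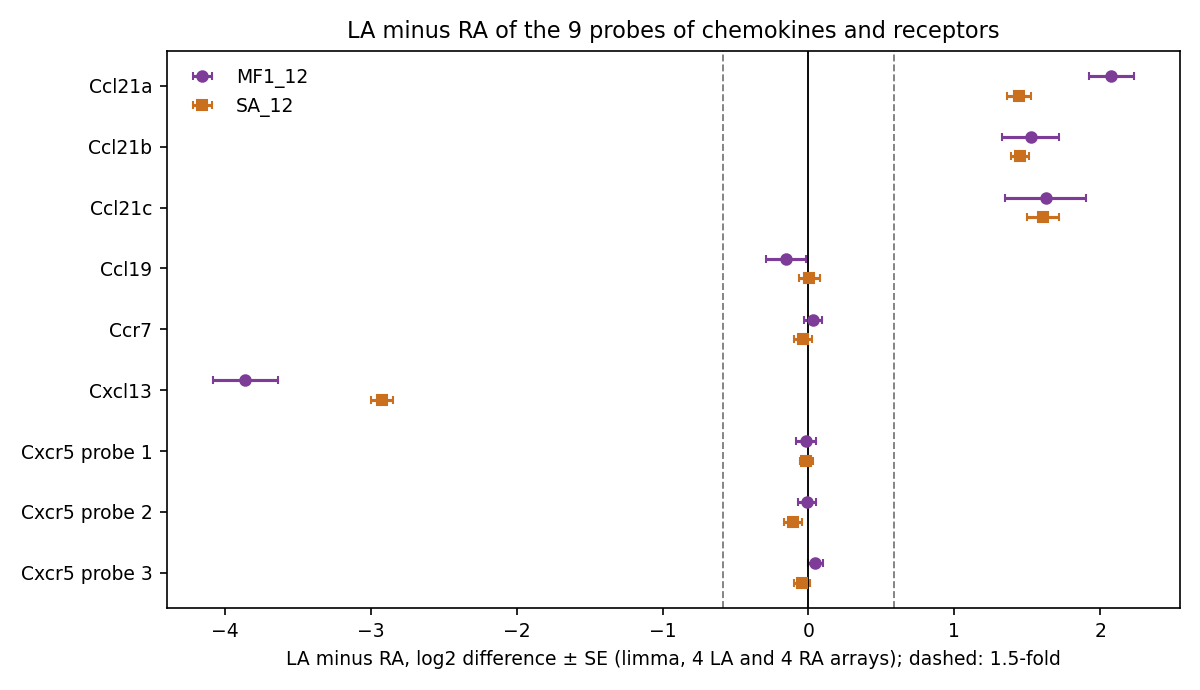
Difference LA minus RA (log2) with its SE (limma, 4 LA and 4 RA arrays) for the 9 probes, in MF1_12 (circles) and SA_12 (squares), with dashed lines at a 1.5-fold difference. The Ccl21 probes lie between 1.44 and 2.08, Cxcl13 at -3.86 and -2.92, and the other 5 probes between -0.15 and 0.05.

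The labels give each array a replicate number on each side, and in MF1_12 the numbers paired LA and RA arrays. Between arrays of the same number, LA minus RA was 1.37 to 2.38 for Ccl21a, 1.01 to 2.06 for Ccl21b and 0.87 to 2.38 for Ccl21c in MF1_12. Cxcl13 differed by -4.25 to -3.53 there. The Ccl21 probes were higher in LA in 4 of 4 numbers and Cxcl13 was higher in RA in 4 of 4, in both strains. For Ccl21b and Ccl21c the differences in MF1_12 were smaller in numbers 2 and 4 (1.01 and 1.22 for Ccl21b, 0.87 and 1.00 for Ccl21c) than in numbers 1 and 3 (1.81 and 2.06 for Ccl21b, 2.24 and 2.38 for Ccl21c). The array of MF1_12 LA replicate 2 varied most around its side's mean over all probes (SD 0.226, against 0.095 to 0.154 in the other 15 arrays).

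The Ccl21 probes varied together within a side in MF1_12 more than in SA_12. After the mean of each side was subtracted, Ccl21b and Ccl21c had a Pearson r of 0.975 over the 8 arrays of MF1_12, and Ccl21a had 0.8001 with Ccl21b and 0.784 with Ccl21c. In SA_12 these values were 0.488, 0.334 and 0.380. Between the Ccl21 probes and Cxcl13 they were -0.305 to -0.090 in MF1_12 and -0.222 to 0.476 in SA_12. Ccl21b had a negative r with Cxcl13 in both strains (-0.305 in MF1_12 and -0.222 in SA_12), while for Ccl21a and Ccl21c the sign differed between strains. These signs depended on the measure. By Spearman's rho, Ccl21b was at -0.190 in MF1_12 and 0.167 in SA_12, Ccl21a at 0.238 and 0.548, and Ccl21c at -0.167 and 0.452. These correlations describe 8 arrays each, in which all probes share the same RNA and normalization, and copies that share a sequence may share their signal.

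**Figure D3:**
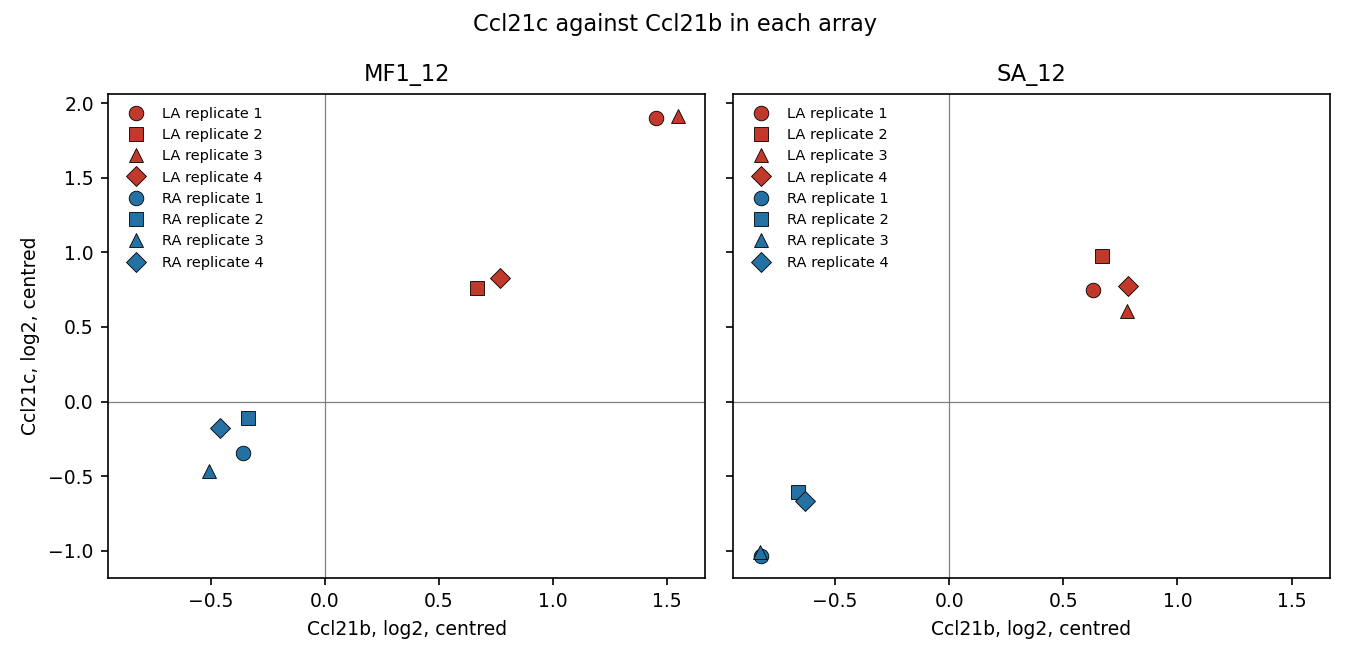
Value of Ccl21c against Ccl21b (log2, centred) in each LA (red) and RA (blue) array of MF1_12 (left) and SA_12 (right), with marker shapes for replicates 1 to 4. In MF1_12, LA replicates 1 and 3 lie apart from LA replicates 2 and 4 on both axes.

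Whether the LA and RA difference itself differed between the strains was tested with limma on all 16 arrays, as the difference in MF1_12 minus that in SA_12, with adjustment over all 25697 probes. For Cxcl13 this was -0.93 (SE 0.25, 95% interval -1.48 to -0.39) and for Ccl21a 0.63 (SE 0.18, interval 0.23 to 1.04), the larger gap between the sides being that of MF1_12 for both. Neither passed after adjustment (adjusted p = 0.319 for Cxcl13 and 0.377 for Ccl21a). Ccl21b and Ccl21c differed by 0.07 (SE 0.22, interval -0.40 to 0.55, adjusted p = 0.967) and 0.02 (SE 0.32, interval -0.68 to 0.72, adjusted p = 0.995), and the other 5 probes had an adjusted p of at least 0.835. Of all probes 0.00778% passed, namely 1 probe each of Cd207 and Mgmt, which were looked up after this count. When the 16 arrays were quantile normalized together, the differences between strains of Cxcl13 and Ccl21a were -0.23 and 0.11. This step was applied to values already centred per probe, and gives all arrays the same distribution. It can itself draw together the values of probes at the extremes, as these are, so it cannot check the difference between strains. As strain and sex change together, they cannot be told apart here.

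Of 18 other genes of the chemokine network, 1 passed higher in LA in each strain and none higher in RA. This was Cxcl12, which guides cells that carry Cxcr4. Of all named genes, 0.386% had a probe higher in LA and 0.663% a probe higher in RA in MF1_12, and 0.35% and 0.464% in SA_12. The strongest Cxcl12 probe was at 0.94, 1.18, 0.67 and 0.25 in MF1_12 LA arrays, against -0.60, -0.43, -0.25 and -1.13 in RA arrays. In SA_12 this probe was at 1.01, 0.51, 0.61 and 0.22 in LA, against -0.61, -0.22, -0.84 and -0.41 in RA. The sides did not overlap in either strain, and the difference was 1.36 (SE 0.23, 2.57-fold, adjusted p = 0.0302) in MF1_12 and 1.11 (SE 0.17, 2.15-fold, adjusted p = 0.00848) in SA_12. The 5 probes of Cxcl12 disagreed. A second probe passed in SA_12 (0.74, SE 0.08, adjusted p = 0.00118) and was at 0.39 in MF1_12 (adjusted p = 0.141), another was at 0.36 in MF1_12 and 0.56 in SA_12, under the fold threshold, and the remaining 2 were between 0.02 and 0.08. Cxcl12 lost its call in MF1_12 in 6 of 8 fits without 1 array (LA replicate 1, LA replicate 3 or any RA array, adjusted p up to 0.104). Ackr2, a decoy receptor for inflammatory CC chemokines, was 0.79 (SE 0.17) higher in LA in MF1_12 with an adjusted p of 0.0645, and passed with the replicate number as a block (adjusted p = 0.0416) and without LA replicate 2 or LA replicate 4 (adjusted p as low as 0.0170). In SA_12 Ackr2 was at 0.33 (SE 0.07, adjusted p = 0.0485), under the fold threshold. The median difference of the 18 genes was 0.02 in MF1_12 and 0.00107 in SA_12, beside -0.000611 and -0.000433 over all genes.

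Of 23 measured genes listed for the lymphotoxin and non-canonical NF-kB pathway, which drives these chemokines in lymphoid stroma, 1 passed higher in RA in each strain and none higher in LA. This was Id2, a helix-loop-helix inhibitor that lymphoid tissue inducer cells need and that many other cells express. The paper names Id2 among canonical targets of BMP signalling that were enriched in RA. Its main probe was at -0.99, -0.27, -1.05 and -1.07 in MF1_12 LA arrays, against 0.87, 0.71, 0.86 and 0.27 in RA arrays, a difference of -1.52 (SE 0.20, adjusted p = 0.00985). In SA_12 it differed by -0.96 (SE 0.12, adjusted p = 0.00358). The second Id2 probe was at -0.89 in MF1_12 (adjusted p = 0.00397) and at -0.36 in SA_12 (adjusted p = 0.0280, under the fold threshold). Ltb, a ligand of the lymphotoxin beta receptor, differed by 0.00307 and 0.01, the receptor gene Ltbr by 0.03 and 0.04, Relb by 0.12 and -0.07, and Nfkb2, which encodes p52, by -0.04 and -0.10, in MF1_12 and SA_12. None of these 4 passed (adjusted p of at least 0.503). Il7 was at 0.10 in MF1_12 and 0.27 in SA_12 (adjusted p = 0.712 and 0.0246), and Rela at -0.10 and -0.30 (adjusted p = 0.734 and 0.0450). Both stayed under the fold threshold. At an unadjusted p under 0.05, 3 genes of the list were higher in LA and 1 in RA in MF1_12, and 3 and 3 in SA_12. The median of the 23 genes was -0.01 in MF1_12 and -0.02 in SA_12.

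Of the markers of the cells that these chemokines attract, and of the genes of high endothelial venules, few passed the threshold. Of 14 measured B cell genes 0 passed in either strain, with the averaged level between -0.04 and 0.10 in LA, against -0.06 and 0.04 in RA, in MF1_12, and between -0.03 and -0.00120 in LA, against -0.05 and 0.06 in RA, in SA_12. At an unadjusted p under 0.05, 2 of them were higher in LA and 0 in RA in MF1_12, and 1 and 1 in SA_12. The B cell genes with the largest mean differences were the transcription factor Ebf1 and Cd79b, a part of the B cell receptor. Ebf1 was at 0.24 in MF1_12 (adjusted p = 0.0590) and 0.04 in SA_12. Cd79b was at -0.13 and -0.30 by 1 probe (adjusted p = 0.919 and 0.0966). By the other probe Cd79b was at 0.02 and -0.14 (adjusted p = 0.982 and 0.528). Of 15 T cell genes 1 passed, higher in RA in MF1_12: Bcl11b (-0.70, SE 0.12, adjusted p = 0.0303), a transcription factor also found outside T cells, which was at -0.10 in SA_12. Its call was lost without LA replicate 1, LA replicate 3 or any RA array (adjusted p up to 0.0988). Of 14 dendritic cell genes and 7 plasma cell genes 0 passed, and of 11 genes of high endothelial venules, through which lymphocytes enter lymph nodes, 0 passed in either strain. At an unadjusted p under 0.05, 1 dendritic cell gene and 1 venule gene were higher in LA in each strain, and 0 dendritic cell genes and 1 venule gene higher in RA in MF1_12, with 1 and 3 in SA_12. Cd83, carried by mature dendritic cells, was at 0.16 in MF1_12 and 0.44 in SA_12 (adjusted p = 0.00661, under the fold threshold), and Fscn1, an actin-bundling protein of these cells, at 0.37 and 0.18 (adjusted p = 0.619 and 0.749). Of the plasma cell genes, the receptor Tnfrsf17 was at 0.05 and 0.24 (adjusted p = 0.901 and 0.102) and the transcription factor Xbp1 at -0.09 and -0.15 (adjusted p = 0.943 and 0.618). The adhesion molecule Icam1, of the venule list, was at -0.26 in MF1_12 (adjusted p = 0.396) and at -0.52 in SA_12 (adjusted p = 0.0297, under the fold threshold), where it passed without LA replicate 2. Vcam1, another adhesion molecule, was at -0.26 and -0.08 (adjusted p = 0.706 and 0.881), and 1 of 3 probes of Gcnt1 was at -0.49 in SA_12 (adjusted p = 0.0147, under the fold threshold). Since the values are centred, whether any of these cells were present in either atrium was not tested.

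Among cells that make the chemokines, lymphatic endothelium and macrophages had genes that passed, while lymphoid stroma did not (0 of 16 genes, with 3 higher in LA and 2 higher in RA at an unadjusted p under 0.05 in MF1_12, and 3 and 4 in SA_12). The stromal cytokine Il33 was at -0.36 in MF1_12 (adjusted p = 0.559) and at -0.56 in SA_12 (adjusted p = 0.0440, under the fold threshold), where it passed without RA replicate 2. Dpt, a matrix protein, was at -0.42 and -0.40 (adjusted p = 0.214 and 0.244). Of 17 genes of lymphatic endothelium, Reln was higher in LA in both strains (1.20, SE 0.09, adjusted p = 0.000527 in MF1_12, and 1.35, SE 0.14, adjusted p = 0.00101 in SA_12), while Lyve1, a hyaluronan receptor that macrophages carry too, was higher in RA in SA_12 (-0.63, SE 0.12, adjusted p = 0.0297). Reln encodes reelin, a secreted glycoprotein. In MF1_12 Lyve1 was at -0.83 (adjusted p = 0.0524; 0.0169 with the replicate block), and in SA_12 it lost its call in 7 of 8 fits without 1 array, all but that without LA replicate 4 (adjusted p up to 0.0951). The transcription factor Prox1 was at 0.31 in MF1_12 and 0.41 in SA_12 by 1 probe (adjusted p = 0.606 and 0.0237) and at 0.03 and 0.01 by the other. Gja4, which arterial endothelium carries too, was at 0.69 in MF1_12 (adjusted p = 0.0847; 0.0377 with the replicate block). Thy1 was at 0.70 in MF1_12 (adjusted p = 0.0885) and at 0.05 in SA_12 (adjusted p = 0.933). Podoplanin (Pdpn) was at 0.11 and 0.17 (adjusted p = 0.949 and 0.779). Of the 17 genes, 3 were higher in LA and 2 in RA at an unadjusted p under 0.05 in MF1_12, and 6 and 3 in SA_12. The averaged level of the 17 genes was 0.04 to 0.19 in LA, against -0.04 to 0.09 in RA, in MF1_12, and -0.01 to 0.09 in LA, against -0.10 to 0.04 in RA, in SA_12. The part of these genes in the Ccl21 difference was not tested.

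Some macrophage genes were higher in RA, as Cxcl13 was. Of 14 measured, 1 in MF1_12 and 3 in SA_12 passed with the higher value in RA, and none with the higher value in LA. At an unadjusted p under 0.05, 1 was higher in LA and 4 in RA in MF1_12, and 2 and 8 in SA_12. Vsig4, a complement receptor of resident macrophages, was at -1.92, -1.396, -1.497 and -2.05 in MF1_12 LA arrays, against 0.78, 0.80, 1.02 and 0.70 in RA arrays. Its difference was -2.54 (SE 0.15, adjusted p = 0.000161) in MF1_12 and -2.96 (SE 0.09, adjusted p = 5.55e-08) in SA_12. In SA_12 C1qb (-0.69, adjusted p = 0.0342) and the haemoglobin scavenger receptor Cd163 (-0.66, adjusted p = 0.0356) passed too. Their calls were lost without some arrays: C1qb lost it in 5 of 8 fits without 1 array (adjusted p up to 0.0975) and Cd163 in 6 of 8 (up to 0.114). The other probe of Cd163 was at -0.04 in MF1_12 (adjusted p = 0.880) and at 0.07 in SA_12 (adjusted p = 0.777). With the replicate block, Cd163 passed in MF1_12 higher in RA (-0.73, adjusted p = 0.0223), and Mrc1, the mannose receptor, passed higher in LA (0.77, adjusted p = 0.0299; 0.235 without the block). In SA_12 Mrc1 was at 0.56 (adjusted p = 0.0455, under the fold threshold) and passed without LA replicate 1 or LA replicate 4, and Folr2, a folate receptor, was at 0.31 (adjusted p = 0.129), so that values of the list lay on both sides of 0 in both strains. Timd4 was at -0.57 in MF1_12 and -0.39 in SA_12 (adjusted p = 0.00276 and 0.00768), under the fold threshold, and passed in MF1_12 without RA replicate 3. C1qa and Cd14 were at -0.47 and -0.46 in SA_12 (adjusted p = 0.0265 and 0.0413), also under the fold threshold. In MF1_12 these 2 genes were at -0.33 and -0.18 (adjusted p = 0.387 and 0.948). The averaged level of the 14 genes was -0.32 to 0.28 in LA, against 0.01 to 0.29 in RA, in MF1_12, and -0.28 to -0.05 in LA, against 0.14 to 0.23 in RA, in SA_12. The median difference was -0.17 in MF1_12 and -0.32 in SA_12, and the part of macrophages in the Cxcl13 difference was not tested.

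Genes of other tissues around the atria moved with the side as well. Of 14 genes of mesothelium and epicardium, Krt7, Tcf21, Upk3b and Wt1 passed higher in RA in MF1_12 (-1.19 to -0.72) and Tcf21 in SA_12 (-0.98), with averaged levels of -0.28 to -0.06 in LA, against 0.08 to 0.32 in RA, in MF1_12, and of -0.19 to 0.000852 in LA, against -0.05 to 0.39 in RA, in SA_12, where the sides overlapped. Of 10 genes of blood vessel endothelium, Vwf passed higher in RA in both strains (-1.02 and -0.76), Pecam1 in MF1_12 and Eng in SA_12. In fits without 1 array, Krt7 kept its call only without LA replicate 2 (adjusted p up to 0.101 otherwise), and Tcf21 in SA_12 lost it without RA replicate 3 (adjusted p = 0.0553). Pecam1 fell under the fold threshold without MF1_12 LA replicate 2, RA replicate 3 or RA replicate 4 (differences down to -0.56), and Eng without SA_12 LA replicate 4 (-0.58). Of 11 myocardial genes, Myl2, a ventricular myosin light chain, passed in SA_12 (-4.25, SE 0.86, adjusted p = 0.0352), and was at -0.40, -0.75, -0.46 and -0.83 in LA arrays, against 0.45, 4.38, 4.10 and 5.62 in RA arrays. Its call held only without RA replicate 1 (adjusted p = 5.36e-05, and up to 0.108 in the other 7 fits without 1 array). In MF1_12 Myl2 was at -1.08 (SE 0.40, adjusted p = 0.339), and it passed there without RA replicate 1 (adjusted p = 0.0394). In SA_12 RA replicate 1, the array with the low Myl2 value, Cxcl13 was at 1.79, within the range of 1.61 to 1.84 of the RA arrays. This is 1 array, and a relation between Myl2 and Cxcl13 was not tested. Of 11 adipocyte, 10 thymus and 10 lung genes 0 passed, with 2 adipocyte genes in MF1_12 and 1 lung gene in SA_12, all higher in RA, at an unadjusted p under 0.05, the largest mean differences being those of Cidea and Plin4, Cd1d1 and Prss16, and Ager and Sftpa1. Bmp10, known for its expression in RA, was higher in RA in both strains (-2.08 and -3.65) and checks the labels of the sides. With the replicate block, Eng (-0.75, adjusted p = 0.00858), the adipocyte gene Cidea (-0.91, adjusted p = 0.00544) and the ventricular light chain Myl3 (1.36, higher in LA, adjusted p = 0.0377) passed in MF1_12 too. The study chose genes on these arrays at the same threshold, so that those named here are not independent of its lists, and their part in the chemokine differences was not tested.

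**Figure D4:**
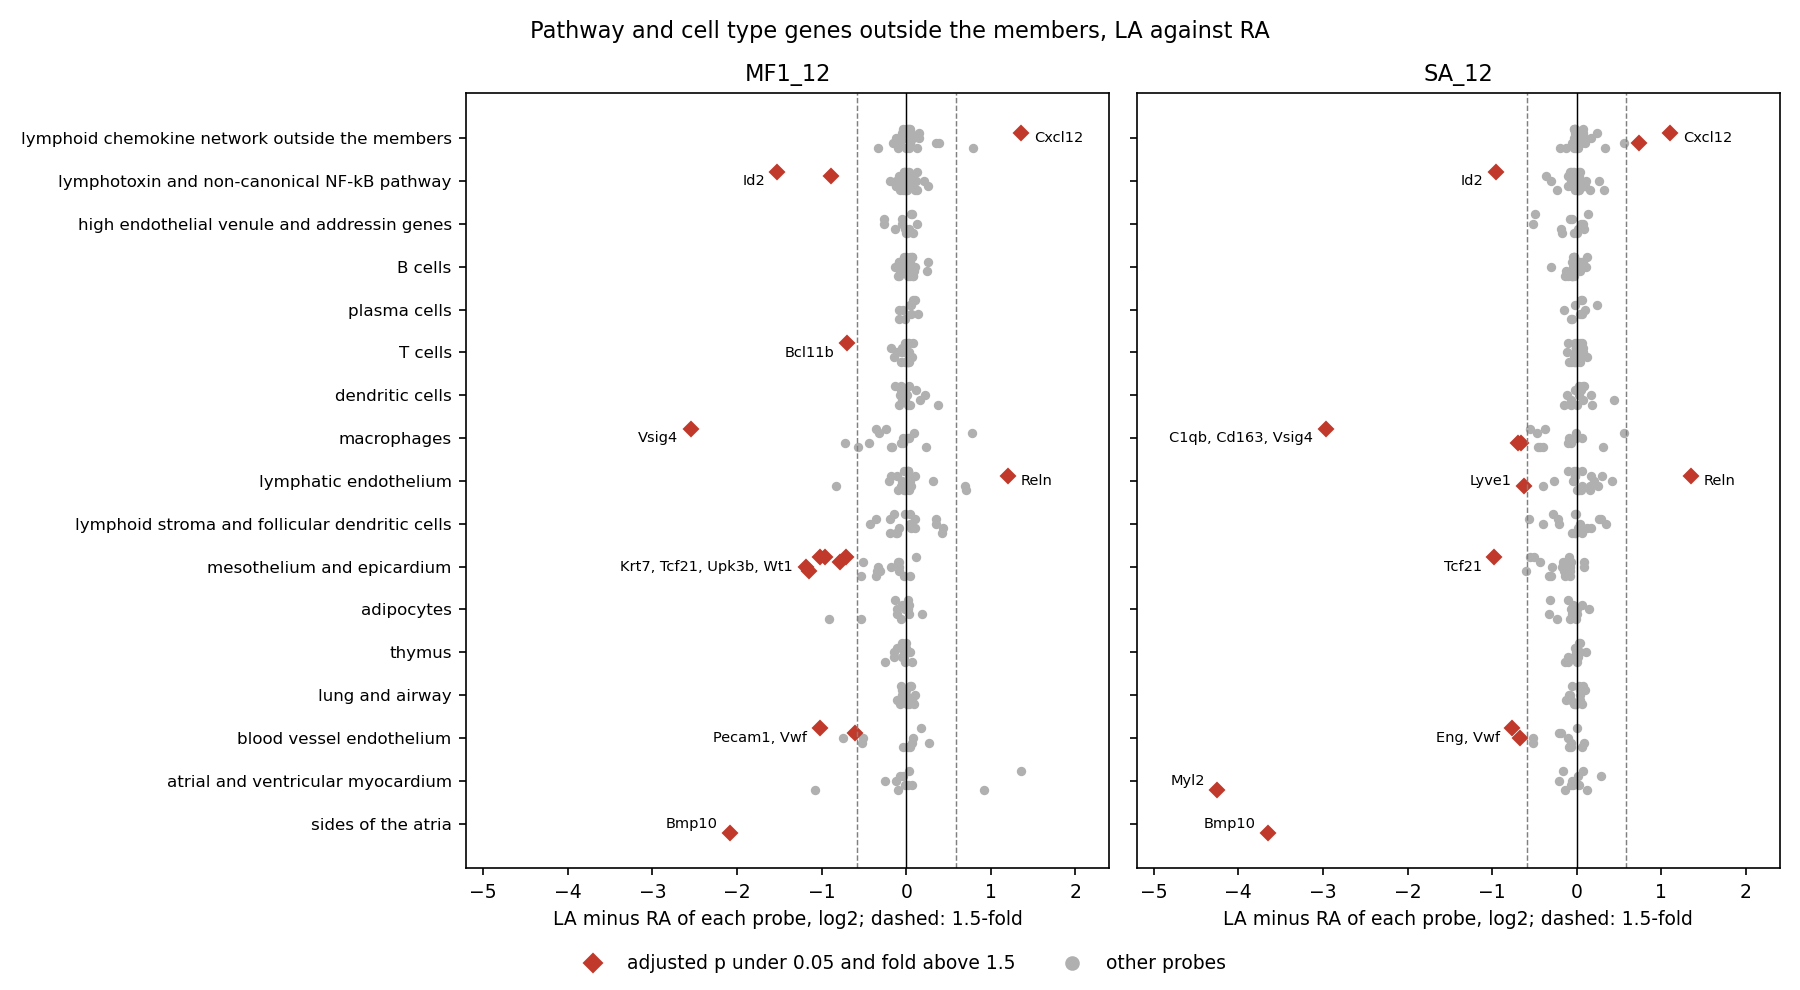
Difference LA minus RA (log2) of every probe of the 17 gene lists, 1 list per row, in MF1_12 (left) and SA_12 (right). Red diamonds with gene names mark probes that passed the threshold (dashed lines at 1.5-fold), and grey points all others. B cell, plasma cell and high endothelial venule genes have no marked probe in either strain.

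The genes most like the chemokines in pattern were ranked by the lower of the Pearson r of both strains, over 8 arrays each. Since the arrays fall into 2 sides, a high r means mainly a shared side. The mean of the Ccl21 probes was closest to Scara5, a ferritin receptor (0.953 in MF1_12 and 0.987 in SA_12), then to Reln (0.950 and 0.956), 1 probe of Cxcl12 (0.945 and 0.952), Slc41a3, a member of the magnesium transporter family (0.945 and 0.969), and Uaca (0.951 and 0.936). Scara5 was at 1.79, 0.58, 1.55 and 1.82 in MF1_12 LA arrays, against -1.06, -0.73, -0.65 and -0.58 in RA arrays, with its lowest LA value in replicate 2, as for Ccl21a. Its difference was 2.19 (SE 0.26) in MF1_12 and 2.05 (SE 0.12) in SA_12, given without a test since the gene was chosen for this pattern.

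Cxcl13 was closest to Vsig4 (0.988 in both strains), Cd207 (0.985 in MF1_12 and 0.993 in SA_12), Hamp (0.977 and 0.995), Arpp21 (0.969 and 0.992) and Clba1 (0.972 and 0.969). Cd207 encodes langerin, a lectin of Langerhans cells and some other phagocytes, and Hamp encodes hepcidin, the hormone that limits iron release. Cd207 was at -3.06, -2.91, -2.79 and -2.96 in MF1_12 LA arrays, against 1.47, 1.14, 1.34 and 1.26 in RA arrays, a difference of -4.23 (SE 0.08), and differed by -3.42 (SE 0.10) in SA_12. Hamp was at -4.001, -1.298, -1.85 and -2.66 in MF1_12 LA arrays, against 1.298, 1.81, 1.88 and 1.598 in RA arrays. Its lowest value was in LA replicate 1, the array in which Cxcl13 was lowest. When the mean of each side was subtracted first, 0 of the 5 genes stayed among the 5 closest for either chemokine.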

How the data were processed

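Total RNA of 16 atria was hybridized to Illumina MouseRef-8 v2.0 arrays, from which the authors read the signals with Genome Studio. Their GeneSpring step applied a quantile algorithm to every dataset and subtracted a median baseline from each probe. The deposited log2 values of these steps were used without further normalization. A further deposited table of signals before normalization was not used, because its 16 sample columns carry no name that ties them to a sample. The annotation gave 1 symbol for 23978 probes and none for 1719.

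LA and RA were compared within each strain over all 25697 probes by limma 3.58.1 (R 4.3.3), with lmFit, eBayes and Benjamini-Hochberg adjusted p-values and without a block. The difference between strains was fitted on 4 groups with a shared spread. A gene of a list passed when 1 of its probes did. Members, lists and motifs were chosen with earlier results of these data known. Named were all members, every list gene that passed in either strain or, where a list had none, the 2 with the largest mean difference, and the 5 genes most like Ccl21 and Cxcl13.

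Whether replicate numbers pair the arrays was checked from deviations from the side means. Same-numbered LA and RA arrays correlated at 0.230 to 0.499 in MF1_12, where arrays of unequal number reached 0.0203. In SA_12 they correlated at -0.112 to 0.138. Which LA and RA arrays share a mouse is read from these data in MF1_12, as the labels give only the number. The main fits and the fit of the difference between strains treat all arrays as independent, although both sides come from the same mice. Their p-values measure the spread between the arrays of a side, not between LA and RA pairs. The fits were tested on simulated data.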

Additional observations from a re-analysis of the deposited data

Results flagged for a closer look

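In MF1_12 RA, replicate 2 of the Ccl21a probe was at -0.28, apart from the other 3 RA arrays at -0.69 to -0.62, and its gap to the nearest of them was 0.832 of the whole range, just above Dixon's critical value for 4 arrays. It was the only array set apart in this way among 36 combinations of probe and group, and chance sets apart about 1 in 20. The MF1_12 LA arrays remained above it, the lowest being at 1.09 (replicate 2). The same RA array had the highest Cxcl13 value of its group (1.62). Without this array the difference LA minus RA of the Ccl21a probe was 2.17, against 2.08 with it.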

How the results depend on the processing

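No difference past the threshold was reversed, and the 4 chemokine probes kept the direction of LA minus RA in every setting tried. Leaving out 1 array moved this difference in MF1_12 within 1.99 to 2.22 for Ccl21a, 1.38 to 1.67 for Ccl21b, 1.44 to 1.82 for Ccl21c and -3.98 to -3.65 for Cxcl13. In SA_12 it stayed within 1.36 to 1.502, 1.42 to 1.49, 1.54 to 1.68 and -2.97 to -2.88. When all 16 arrays were quantile normalized together, the difference of Cxcl13 in MF1_12 was -3.20, and in SA_12 those of Ccl21a, Ccl21b and Ccl21c were 1.76, 1.77 and 2.00. This step gives all arrays the same distribution of centred values, and can itself move probes at the extremes. How much of these changes it made was not tested. Of the member probes, 3 to 4 passed in MF1_12 without 1 array and 4 in SA_12, and 2 passed in MF1_12 with an ordinary variance, where Ccl21b and Ccl21c did not. Over 19 alternatives the adjusted p of the difference between strains was 0.0727 to 0.970 for Ccl21a (lowest without MF1_12 LA replicate 2), 0.09998 to 0.781 for Cxcl13 (lowest with the replicate block), 0.794 to 0.991 for Ccl21b and 0.846 to 0.999 for Ccl21c. The difference between strains of Ccl21b was -0.41 to 0.22 and that of Ccl21c -0.49 to 0.22 over these alternatives.

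Of all genes of the lists, 2 passed higher in LA in MF1_12, against 4 with array weights, 6 with the replicate block, and 1 to 4 without 1 array. With the block these were Cxcl12, Ackr2, Mrc1, Reln, Gja4 and Myl3. In SA_12, 10 passed higher in RA, against 5 to 8 without 1 array. By the adjusted p alone, 8 genes were higher in LA there and 19 in RA. Among genes most like the Ccl21 probes, 1 of 5 was shared under Spearman's rho and 0 under deviations from the side means, and for Cxcl13 0 and 0. The replicate block ended no call of a chemokine probe, and its other changed calls in MF1_12 stand beside their results. In SA_12 the values did not show a pairing by number, as 1 of 4 LA arrays correlated best with its own number. There, 10 list genes passed higher in RA with the block and 10 without it. Of these, C1qb passed only without it and Upk3b only with it (-0.60, adjusted p = 0.0486, against 0.319 without). Signal over background is unknown in centred values, and 4 arrays a side limit every count.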
